A study of Rattus norvegicus with 12 samples.

Results

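CGRP and adrenomedullin are related peptides, and the transcripts examined here were those of the CGRP genes Calca and Calcb, of adrenomedullin (Adm), of their shared receptor (Calcrl) and of the receptor activity-modifying proteins Ramp1, Ramp2 and Ramp3. The 7 genes had 9 probes among the 30367 rat probes of the array, found by matching the RefSeq accession of each probe to a gene symbol. Calca and Ramp1 had 2 probes each and the other genes 1 each. All 9 probes were well above background on all 12 arrays, as were 18947 probes of the whole array. The genes were chosen from these data because both Calca probes were lower in the CS+LPS group, so the values of CS+LPS against control are given as a description, without a test, and for Calca the same holds for every comparison with control or CS+LPS arrays.

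Lung RNA came from male rats of 8 to 12 weeks by the labels, Sprague-Dawley by the study's methods, with 3 rats in each of 4 groups and an array for each rat. Control rats had air or saline on the same schedule. CS+LPS rats breathed cigarette smoke (CS) until day 30 and received lipopolysaccharide (LPS) into the trachea on days 5 and 19, a rat model of chronic obstructive pulmonary disease. CS+LPS+NaHS rats also received NaHS, a salt that releases hydrogen sulfide, at 14 μmol/kg, and CS+LPS+PPG rats also received propargylglycine (PPG), an inhibitor of the hydrogen sulfide-forming enzyme CTH, each injected before exposure. All lungs were taken 24 h after the last smoke exposure, and RNA was from the left upper lobe, so that fewer cells of a type and less RNA per cell cannot be told apart.

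Arrays lay on 2 slides. Slide 2 held the 3 CS+LPS arrays and control replicate 3, and slide 1 held all the others. CS+LPS can thus be told apart from a treated group only across slides, with control replicate 3 as their sole bridge. That array had the lowest signal and correlated with the others at r of 0.936 to 0.956 over the detected probes. Values are log2 of the scanner's background-subtracted processed signal, scaled to the 75th percentile of each array, and a difference of 1 on this scale is a fold of 2. A probe was called where limma gave an unadjusted p below 0.05 and the fold was 2 or more, the fold rule and threshold of the study's methods, and the Benjamini-Hochberg adjusted p over 21239 detected probes is given beside it. Probe levels are compared only within a probe.

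Calca is a single gene whose transcript is spliced either to calcitonin, the hormone of thyroid C cells, or to αCGRP, a vasodilator peptide of sensory nerves and of pulmonary neuroendocrine cells. Calcb codes for βCGRP, and adrenomedullin is a vasodilator that endothelium and many other lung cells make and that hypoxia induces. Both forms of CGRP and adrenomedullin act through CALCRL, a receptor that raises cyclic AMP and needs a RAMP partner at the cell surface. With RAMP1 it is the CGRP receptor, and with RAMP2 or RAMP3 it is an adrenomedullin receptor, with RAMP2 the main partner in blood vessels.

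The Calca probes were matched to different transcripts. By the authors' lists, probe A_64_P018761 was for transcript variant 1 and lay at chr1:172688192-172688251 on the minus strand, and probe A_64_P018766 was for variant 2 and lay at chr1:172686203-172686262, further along the gene in the direction of transcription. The lists name no build, and the array grid names rn4. Which exons these are, and so which of calcitonin and CGRP each probe measures, was not checked. Calcb lies next to Calca and is similar in sequence, so shared hybridization cannot be told apart from expression.

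The promoters of Calca and Adm, the peptide genes with the largest differences from control, are shown from RefSeq (GRCr8, 250 bases before to 50 after the start site). For Calca (chr1:178317480-178317779, minus strand) capitals mark TGACG, the core of a cyclic AMP response element, and CANNTG, an E box. For Adm (chr1:174179950-174180249, plus strand) capitals mark TATAA, read on both strands, whose matches overlap.
Calca promoter: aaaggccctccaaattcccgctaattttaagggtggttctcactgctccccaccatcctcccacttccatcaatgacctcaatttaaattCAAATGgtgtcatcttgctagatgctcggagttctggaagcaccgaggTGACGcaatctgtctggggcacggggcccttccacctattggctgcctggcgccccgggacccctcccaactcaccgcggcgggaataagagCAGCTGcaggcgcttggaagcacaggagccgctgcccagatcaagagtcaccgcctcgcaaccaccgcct
Adm promoter: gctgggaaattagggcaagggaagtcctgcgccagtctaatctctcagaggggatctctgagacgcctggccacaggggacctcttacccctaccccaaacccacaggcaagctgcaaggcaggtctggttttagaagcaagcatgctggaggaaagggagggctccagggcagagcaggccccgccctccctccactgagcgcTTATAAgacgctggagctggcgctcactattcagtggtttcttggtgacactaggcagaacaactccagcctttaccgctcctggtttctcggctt
Among 33469 promoters of the same length, 21.2% held TGACG on either strand, 72.1% held CANNTG and 26.2% held TATAA. The hypoxia-response cores ACGTG and GCGTG, held by 19.3% and 29.7% of promoters, were not found in either window. Promoters of Calcrl, Ramp1 and Ramp3 held no TGACG. Ramp1 and Ramp3 each held GCGTG once and Calcrl did not.

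After scaling, Calca was lower on every CS+LPS array than on every control array with both probes. Such a separation of groups, in one direction or the other, was seen for 25.2% of all detected probes. The variant 1 probe read 7.71, 7.79 and 7.73 in control replicates 1 to 3 and 6.52, 6.18 and 6.02 in CS+LPS replicates 1 to 3. It read 6.51, 6.91 and 6.07 with NaHS and 7.26, 6.28 and 6.86 with PPG. All 9 exposed arrays were below all 3 control arrays, and the controls lay close together (7.74 ± 0.04, SD, n = 3). Both rest on the scaling, since control replicate 3 had 115.2 units before it and the other controls 194 and 218. CS+LPS replicate 1 had 129.5 units, NaHS replicate 2 139.9 and PPG replicate 1 156.8.

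The variant 2 probe read 8.58, 8.49 and 9.54 in control, 6.98, 6.73 and 6.35 in CS+LPS, 7.43, 8.36 and 7.48 with NaHS, and 7.87, 6.97 and 7.96 with PPG. Here too all exposed arrays were below all controls after scaling. The scaled NaHS arrays were also above all CS+LPS arrays with this probe, whereas PPG replicate 2 lay just under CS+LPS replicate 1. In unscaled units NaHS replicate 2 (384.8) was above control replicates 1 and 2 (349.5 and 355.5). NaHS replicate 1 (177) was then just under CS+LPS replicate 1 (178.9). Before scaling, the variant 1 signal ranged from 115 to 218 units in control and from 67.1 to 129.5 in CS+LPS, against a local background of 39 to 49 in these groups. These are dim probes, and the background was a sizeable part of what the scanner read.

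The difference of CS+LPS from control was -1.50 on the log2 scale for the variant 1 probe, 0.353 times control, and -2.18 for the variant 2 probe, 0.220 times control. With NaHS the differences from control were -1.25 and -1.12, and with PPG they were -0.94 and -1.27, in the same probe order. Among control arrays of its own slide, CS+LPS differed by -1.49 and -2.86, NaHS by -1.26 and -0.78, and PPG by -0.95 and -0.94. Calca was thus lower in each exposed group than in the controls of its own slide, which for CS+LPS meant control replicate 3 alone. The variant 2 values for NaHS and PPG were under a fold of 2 without control replicate 3.

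Relative to CS+LPS, the variant 2 probe was higher by 1.07 with NaHS (2.10 times) and by 0.91 with PPG (1.88 times), and the variant 1 probe by 0.25 and 0.56. The slides differ here too. The comparison of NaHS with PPG shared a slide and did not use the arrays by which Calca was chosen. There the variant 1 probe differed by -0.31 (95% interval -0.89 to 0.28, adjusted p = 0.760) and the variant 2 probe by 0.16 (-0.65 to 0.97, adjusted p = 0.936), with overlapping groups. No difference between NaHS and PPG was detectable for Calca, and the intervals reach almost to a fold of 2.

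**Figure D1:**
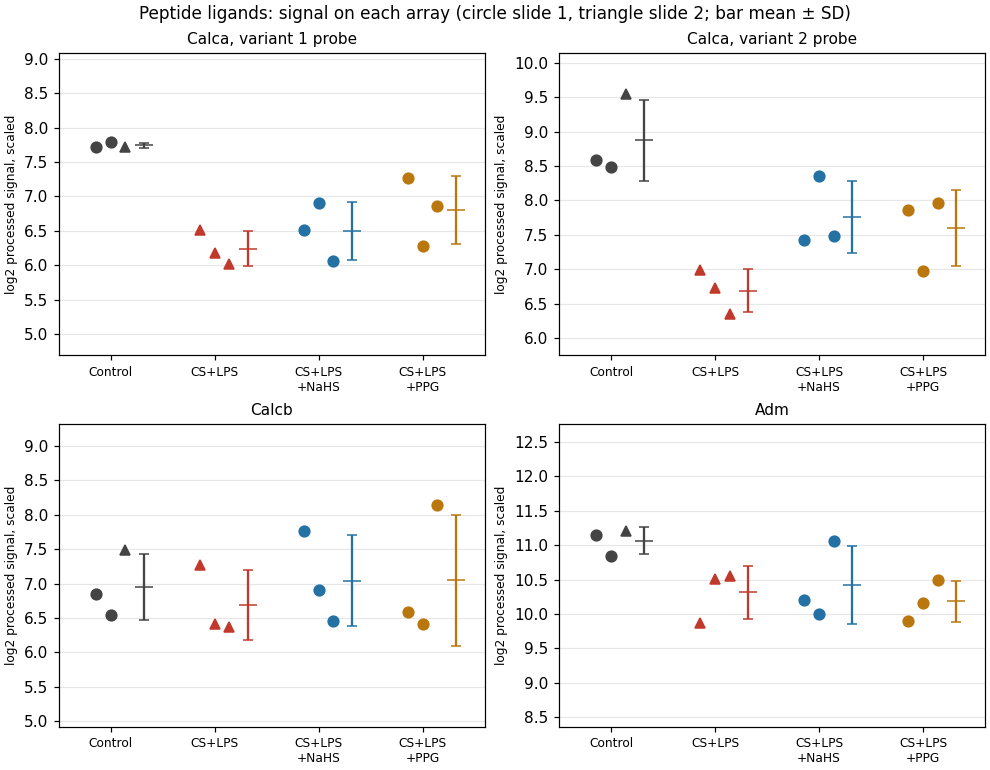
Scaled log2 processed signal of the ligand probes on each array (circles slide 1, triangles slide 2, bars mean ± SD, n = 3), each panel 4.4 log2 units tall. For both Calca probes all 9 exposed arrays lie under the 3 controls, while the Calcb groups overlap.

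The gap between the Calca probes was not the same in the groups. The variant 2 probe read 0.87, 0.70 and 1.82 above the variant 1 probe in control replicates 1 to 3, and 0.47, 0.55 and 0.33 above it in CS+LPS. It was 0.92, 1.45 and 1.41 above with NaHS and 0.60, 0.69 and 1.10 above with PPG. Every CS+LPS array had a smaller gap than every other array. The mean gap was 0.45 ± 0.11 (SD, n = 3) in CS+LPS, 1.13 ± 0.60 in control, 1.26 ± 0.30 with NaHS and 0.80 ± 0.27 with PPG. The size of this gap has no meaning between different probes, but its change over groups says that the probe signals did not move by equal amounts. The CS+LPS arrays are all on slide 2, as is control replicate 3, which had the largest gap. Their variant 1 signal was low, 67.1 to 129.5 units before scaling. The part of slide or low signal in the gap was not tested. Since it comes from the values that chose Calca, it was not tested. Over the 12 arrays the probes correlated at r = 0.884, and at 0.689 after the group means were removed.

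**Figure D2:**
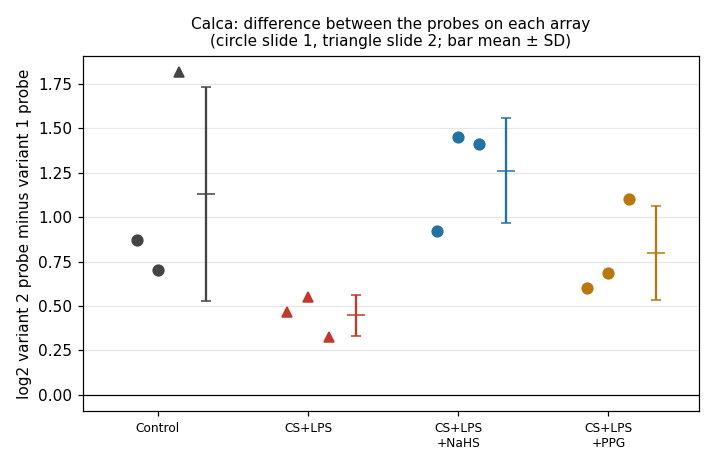
Difference between the variant 2 and variant 1 probes of Calca on each array, in log2 units (circles slide 1, triangles slide 2, bars mean ± SD, n = 3). The 3 CS+LPS arrays, from 0.33 to 0.55, lie under all others.

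Calcb, the gene for βCGRP, showed no separation of the groups. Its probe read 6.84, 6.54 and 7.48 in control, 7.27, 6.41 and 6.37 in CS+LPS, 7.77, 6.91 and 6.45 with NaHS, and 6.59, 6.41 and 8.14 with PPG. All 4 groups overlapped, and PPG replicate 3 was the highest array. CS+LPS differed from control by -0.27. With NaHS and PPG the difference from control was 0.09 for each (adjusted p = 0.938 and 0.916), and the intervals, -0.99 to 1.16 and -0.98 to 1.16, reach a fold of 2 in the upward direction and come close to it downward. Of the genes that flank Calca and Calcb, Pde3b differed between CS+LPS and control by -0.15 and Insc by 0.36 (adjusted p = 0.687 and 0.518), and Cyp2r1 and Sox6 had no detected probe with that symbol.

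Adm was lower in CS+LPS than in control on all arrays after scaling. It read 11.15, 10.84 and 11.21 in control, 9.87, 10.51 and 10.55 in CS+LPS, 10.20, 10.002 and 11.07 with NaHS, and 9.89, 10.15 and 10.49 with PPG. The CS+LPS and PPG arrays all lay under the controls, and NaHS replicate 3 lay among them. CS+LPS differed from control by -0.75. The NaHS group differed from control by -0.64 (SE 0.29, adjusted p = 0.287) and the PPG group by -0.88 (SE 0.29, adjusted p = 0.0853). None reached a fold of 2, and neither tested difference passed the adjusted test. The order for CS+LPS rests on the scaling, since control replicate 3, the array with the lowest 75th percentile, had 1287 units before scaling and the CS+LPS arrays had 1330 to 1554. Against controls of the same slide, CS+LPS differed by -0.89, the NaHS group by -0.57 and the PPG group by -0.81. Adm differed by 0.24 between NaHS and PPG (adjusted p = 0.839).

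For the receptor itself the CS+LPS and control arrays overlapped. Calcrl read 10.88, 10.15 and 11.05 in control and 10.44, 10.62 and 10.78 in CS+LPS, a difference of -0.08. It read 10.96, 11.21 and 11.16 with NaHS and 11.01, 10.64 and 10.85 with PPG. All NaHS arrays were above all CS+LPS arrays, by 0.49 on average (SE 0.22, adjusted p = 0.493), which did not pass the adjusted test and was again measured across slides. The difference of NaHS from PPG was 0.28 (adjusted p = 0.731).

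Ramp1, whose product makes CALCRL the CGRP receptor, was higher in the means of all exposed groups with both probes. The 2-spot probe, A_64_P022090, read 12.98, 13.34 and 12.57 in control, 13.34, 13.66 and 13.52 in CS+LPS, 13.46, 13.43 and 13.09 with NaHS, and 13.35, 13.47 and 13.52 with PPG. The single-spot probe, A_64_P159404, read 11.34, 11.85 and 10.48 in control, 11.85, 12.04 and 11.95 in CS+LPS, 12.03, 11.83 and 11.61 with NaHS, and 11.79, 11.92 and 12.01 with PPG. Control replicate 3 was the lowest array with either probe and control replicate 2 lay at or near the exposed arrays.

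CS+LPS differed from control by 0.54 and 0.72 in this probe order, NaHS by 0.36 and 0.60 (adjusted p = 0.347 and 0.299), and PPG by 0.48 and 0.68 (adjusted p = 0.131 and 0.137). None reached a fold of 2. Without control replicate 3 CS+LPS differed from control by 0.34 and 0.35, the NaHS group by 0.17 and 0.23, and the PPG group by 0.28 and 0.31. The probes correlated at r = 0.965 over the 12 arrays.

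Ramp2 and Ramp3, the adrenomedullin partners, overlapped between all groups. Ramp2 read 14.42, 14.71 and 13.13 in control, and the 9 exposed arrays lay between 14.05 and 14.45. CS+LPS differed from control by 0.23, a value that was -0.25 without control replicate 3 and 1.19 against that array alone. No direction can be read for Ramp2. Ramp3 read 9.58, 9.44 and 8.60 in control, 8.84, 9.18 and 8.57 in CS+LPS, 8.93, 9.20 and 8.40 with NaHS, and 8.78, 8.85 and 8.96 with PPG. CS+LPS differed from control by -0.34, NaHS by -0.36 (adjusted p = 0.499) and PPG by -0.34 (adjusted p = 0.425). Control replicate 3 lay among the exposed arrays, while all 9 exposed arrays were under the other 2 controls. Without that array CS+LPS differed from control by -0.64, the NaHS group by -0.66 and the PPG group by -0.64. Against it alone the CS+LPS difference was 0.26.

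**Figure D3:**
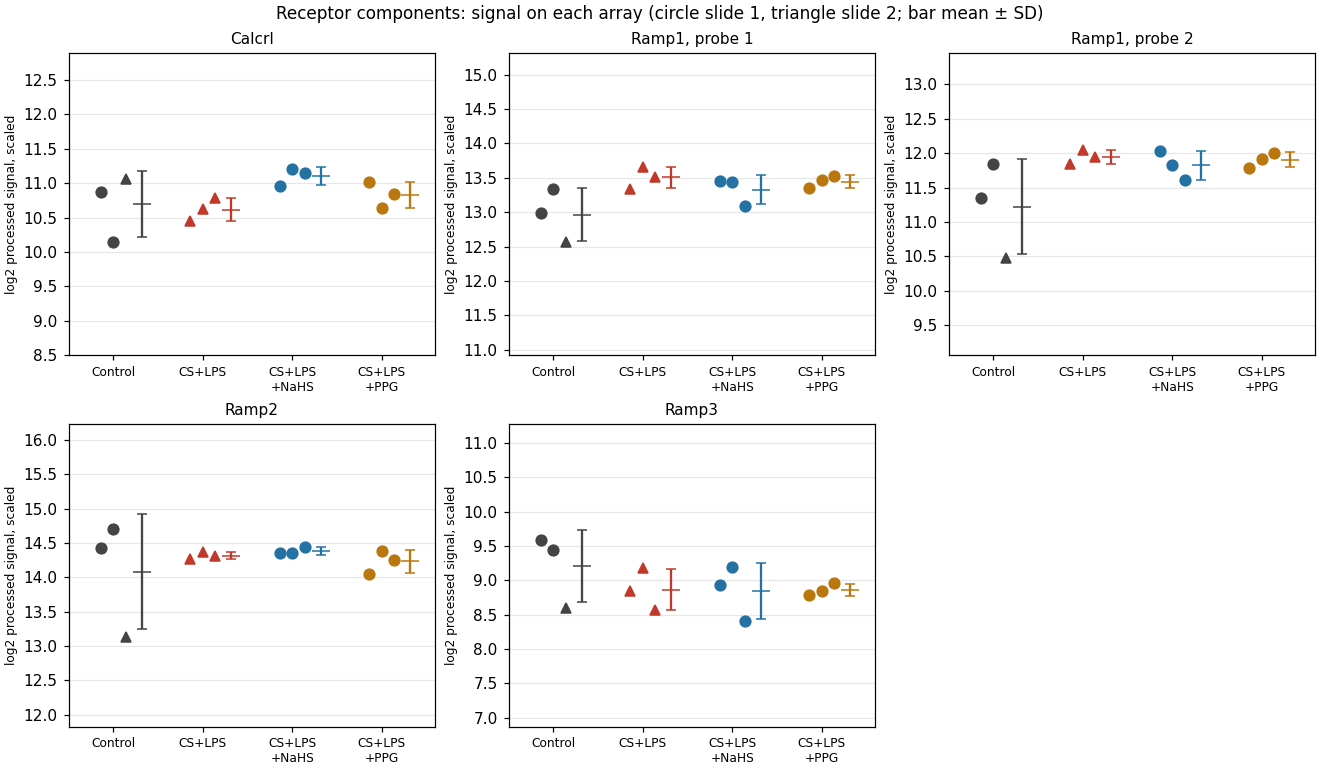
Scaled log2 processed signal of the receptor and RAMP probes on each array (circles slide 1, triangles slide 2, bars mean ± SD, n = 3), each panel 4.4 log2 units tall. Control replicate 3, the control triangle, is the lowest control for both Ramp1 probes, Ramp2 and Ramp3.

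Between CS+LPS and control, 2 of the 9 probes differed by a fold of 2 or more, both of Calca and both used in the choice. Of all detected probes 4.56% were called there, and nothing is read from this share for Calca. Groups did not overlap for 4 of the 9, which were the Calca probes, Adm and the 2-spot Ramp1 probe, against 25.2% of all probes, and the Ramp1 groups were apart only in the third decimal. Groups did not overlap for 2 probes between NaHS and control, both of Calca (24.8% of all probes). Between PPG and control this held for 4, the Calca probes, Adm and the 2-spot Ramp1 probe (33.2%). Between NaHS and CS+LPS it held for 2, the variant 2 probe of Calca and Calcrl (20.5%). It held for none between PPG and CS+LPS (19.1%) or between NaHS and PPG (25.2%). Nothing is read from these shares for Calca. Against control, both Calca probes were past a fold of 2 with NaHS and the variant 2 probe with PPG. That probe was also past it between NaHS and CS+LPS. These Calca values are descriptions, since they rest on arrays by which Calca was chosen. Of all detected probes, 2.67% were called between NaHS and control, 4.38% between PPG and control, 1.7% between NaHS and CS+LPS, 2.05% between PPG and CS+LPS and 0.523% between NaHS and PPG. The comparisons share control or CS+LPS arrays. Of the 7 probes of the other genes, 0 were called and 0 passed limma's adjusted test in the 5 tested comparisons, where 0.0989%, 4.64%, 0.593%, 0.523% and 0% of all probes passed it, in the order NaHS and PPG against control, NaHS and PPG against CS+LPS, and NaHS against PPG. Unadjusted, p was under 0.05 for 1, 3, 1, 0 and 0 of the 7 in the same order, against 17.1%, 29.3%, 9.67%, 10.5% and 8.74% of all probes. The lowest adjusted p was 0.0853, for Adm with PPG against control.

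**Figure D4:**
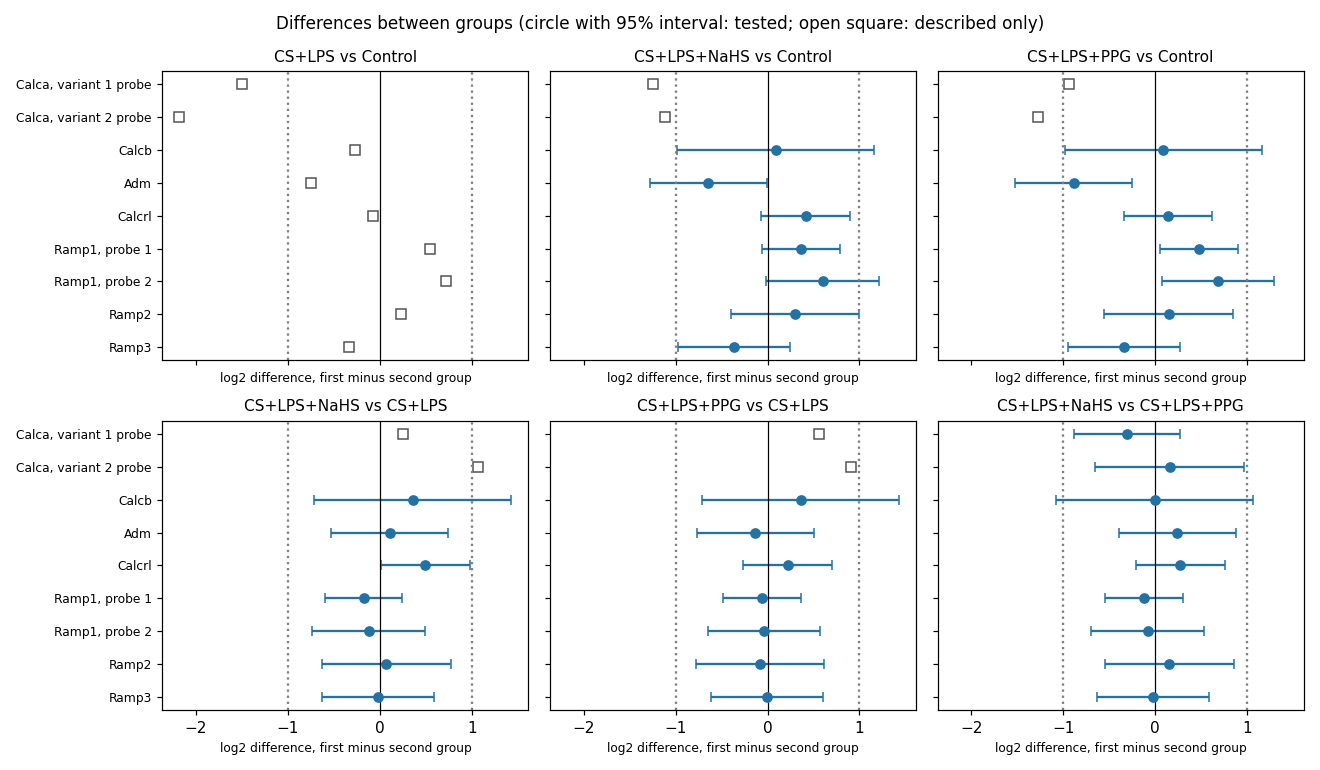
Log2 difference of each probe in the 6 comparisons, first minus second group (circles with 95% intervals were tested, open squares are descriptions, dotted lines mark a fold of 2). Only Calca probes lie past a fold of 2.

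The groups could be put in order for each gene, but few neighbours were apart. For both Calca probes control was highest and CS+LPS lowest, and NaHS and PPG changed places between the probes. For Adm control was highest and the other 3 groups overlapped. For Calcrl NaHS was highest and CS+LPS lowest. For both Ramp1 probes CS+LPS was highest and control lowest, with the 3 exposed groups within 0.18 of each other. The neighbouring groups of Calcb, Ramp2 and Ramp3 all overlapped.

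The genes whose signal over the 12 arrays was most like the variant 2 probe of Calca were Klhdc1 (Pearson r = 0.951), Dio3 (0.923), Cep290 (0.918), Jdp2 (0.916) and Hrk (0.916), and without control replicate 3 these were 0.861 to 0.921. Dio3 codes for the deiodinase that inactivates thyroid hormone and differed between CS+LPS and control by -1.98, near the size of Calca. Klhdc1, Cep290, Jdp2 and Hrk differed there by less, -0.80, -0.63, -0.76 and -0.88. A lower value in CS+LPS is partly built into genes picked for their likeness to Calca. With the 2-spot Ramp1 probe the most alike were Adgre1 (0.981), Lilrc2 (0.975) and Tyrobp (0.971). Adgre1 is a surface antigen of macrophages and Tyrobp an adaptor of myeloid receptors, and without control replicate 3 their r was 0.9504 and 0.9227. The genes most like Calcrl were Zfp609 (0.913), Shc1 (0.908) and Elk4 (0.895), and those most like Adm were Brd2 (0.869), Rnf39 (0.815) and Rcn1 (0.808). Calcb was most like Ccl20 (0.911), Lta (0.898) and Lrrc26 (0.894), and Ramp3 was most like Bnip3 (0.871), Tac1 (0.858) and Igfbpl1 (0.851). Ramp2 was most like Mfn2 (0.977), Gpx3 (0.973) and Ctsf (0.965), values that were 0.874, 0.833 and 0.759 without control replicate 3. These are the highest of 11331 symbols and are descriptions, since all points share arrays, slides and the scaling.

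Other genes of the pathway were read from lists. Of the related peptides and receptors, 3 of 4 matched genes were detected (Adm2, Crcp and Ackr3) and none was called in any comparison. The calcitonin receptor, Calcr, was above background on 0 of 12 arrays. Of 11 detected genes that mature or degrade peptides, 1 was called higher and 2 lower in CS+LPS than in control. The share of all probes called in this comparison, 4.56%, stands behind each list count given for it. Cma1, a mast cell chymase, rose by 1.04 (SE 0.19, adjusted p = 0.0295). Carboxypeptidase E (Cpe), which trims peptide hormones, had -1.05 (adjusted p = 0.0757) and the mast cell tryptase Tpsab1 -1.48 (adjusted p = 0.163), and these met the fold rule alone. Without control replicate 3 Tpsab1 was not called (-1.38, adjusted p = 0.302). Cpe was lower with PPG as well (-1.21, adjusted p = 0.0428). Pam, the enzyme that amidates both CGRP and adrenomedullin, was higher with NaHS than in CS+LPS by 0.92 (SE 0.16, adjusted p = 0.0385), short of a fold of 2 and again across slides.

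Of 24 detected genes of receptor signalling through cyclic AMP, 0 were called higher and 2 lower in CS+LPS. Rapgef3, the cyclic AMP-activated exchange factor EPAC1, fell by 1.01 on the log2 scale (SE 0.15, adjusted p = 0.0160), and adenylyl cyclase Adcy5 had -1.23 (adjusted p = 0.105). The list's median difference was -0.17 against -0.04 for all probes. With PPG, Rapgef3 fell by 0.81 and Pde4b, which degrades cyclic AMP, fell by 0.98 (adjusted p = 0.0275 and 0.0423). Without control replicate 3, Rapgef3 in CS+LPS kept its size (-0.9985, adjusted p = 0.0267), just short of a fold of 2, while Adcy5 had -0.73 (adjusted p = 0.190). With PPG, Rapgef3 had -0.80 and Pde4b -0.82 in that fit (adjusted p = 0.0401 and 0.0738). Of 12 detected hypoxia-response genes none was called in any comparison, with a median of -0.23 in CS+LPS. Pfkfb3, a glycolytic regulator, differed by -0.97 (adjusted p = 0.0450), and by -0.76 without control replicate 3 (adjusted p = 0.0736).

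Markers of cells that can make these peptides were read beside them. Of 9 detected neuroendocrine markers, 1 was called between CS+LPS and control, Chgb, lower by 1.30 in CS+LPS (adjusted p = 0.150), and the median was -0.51. Ncam1 was called lower with PPG than in control (4.38% of all probes called) and higher with NaHS than with PPG (0.523%). Scg2, well above background on 7 of 12 arrays, was called higher with PPG than in CS+LPS (2.05%). Chgb was well above background on 9 of 12 arrays and was not called without control replicate 3 (-0.97, adjusted p = 0.348). The mean log2 signal of the list lay between 7.57 and 8.35 in control and between 7.24 and 7.78 in CS+LPS, which overlap. The log2 of the summed signal lay between 12.58 and 12.67 in control, 11.97 and 12.60 in CS+LPS, 11.97 and 12.32 with NaHS, and 12.07 and 12.41 with PPG, but the Ddc probe is the largest part of this sum (11.04 to 12.14, with no other probe of the list above 9.58). The defining markers Chga, Grp, Scg3 and Neurod1 were not detected. Of 7 detected neuronal markers none was called in CS+LPS against control, and the median was 0.20. Trpv1, Snap25, Dbh and Nefl were not detected. Tac1, the gene for substance P of sensory nerves, differed by -0.73 in CS+LPS (adjusted p = 0.295). Without control replicate 3 Tac1 was called lower in CS+LPS, NaHS and PPG (-1.289, -1.005 and -1.104, adjusted p = 0.0657, 0.202 and 0.0684). Most of the neuronal list went the other way in CS+LPS in that fit. Prph, Tubb3, Th, Vip and Npy had 0.40, 0.61, 0.23, 0.61 and 0.28, and Stmn2 had -0.29. Another Tac1 probe, A_64_P009996, differed by -0.45 between CS+LPS and control with all arrays. Of 9 detected thyroid markers, Tg was above background on all arrays, at 7.42 to 8.44 on the log2 scale, and did not pass the test between CS+LPS and control (0.23, adjusted p = 0.569). In the same comparison Pax8 rose by 1.73 (adjusted p = 0.0213), and Slc26a4, well above background on 9 of 12 arrays, was called higher and is given without a fold. Tshr had -1.01 (adjusted p = 0.0517). The part of these cells in the Calca values was not tested.

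Of 12 detected blood endothelial markers 0 were called between CS+LPS and control, and the median was -0.11. Tek, a vascular growth factor receptor, differed by -0.77 (adjusted p = 0.0392). Cdh5, VE-cadherin, was higher with NaHS than in CS+LPS by 1.45 (adjusted p = 0.0610). Of 5 lymphatic and 8 smooth muscle markers none was called in CS+LPS. In CS+LPS the neutrophil list had 1 of 9 genes called higher, Fcnb (2.78, adjusted p = 0.0452), with a median of 0.78, and the T and B cell list had 3 of 12, Cd2, Cd79b and Ms4a1 (1.46, 1.24 and 1.07, adjusted p = 0.163, 0.0555 and 0.0450), with a median of 0.85. Without control replicate 3 these medians were 0.38 and 0.38, Cd2 was not called (0.61) and Fcnb had 2.44 (adjusted p = 0.0939). Mpo, also of the neutrophil list, had -0.87 in CS+LPS in that fit (adjusted p = 0.0617). With and without that array it was called higher with NaHS and with PPG than in CS+LPS. Without it these differences were 1.54 and 1.695 (adjusted p = 0.00319 and 0.00165), again across slides. Of all probes, 1.7% and 2.05% were called there in the main fit. The share of immune cells in the Ramp1 values was not tested.

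**Figure D5:**
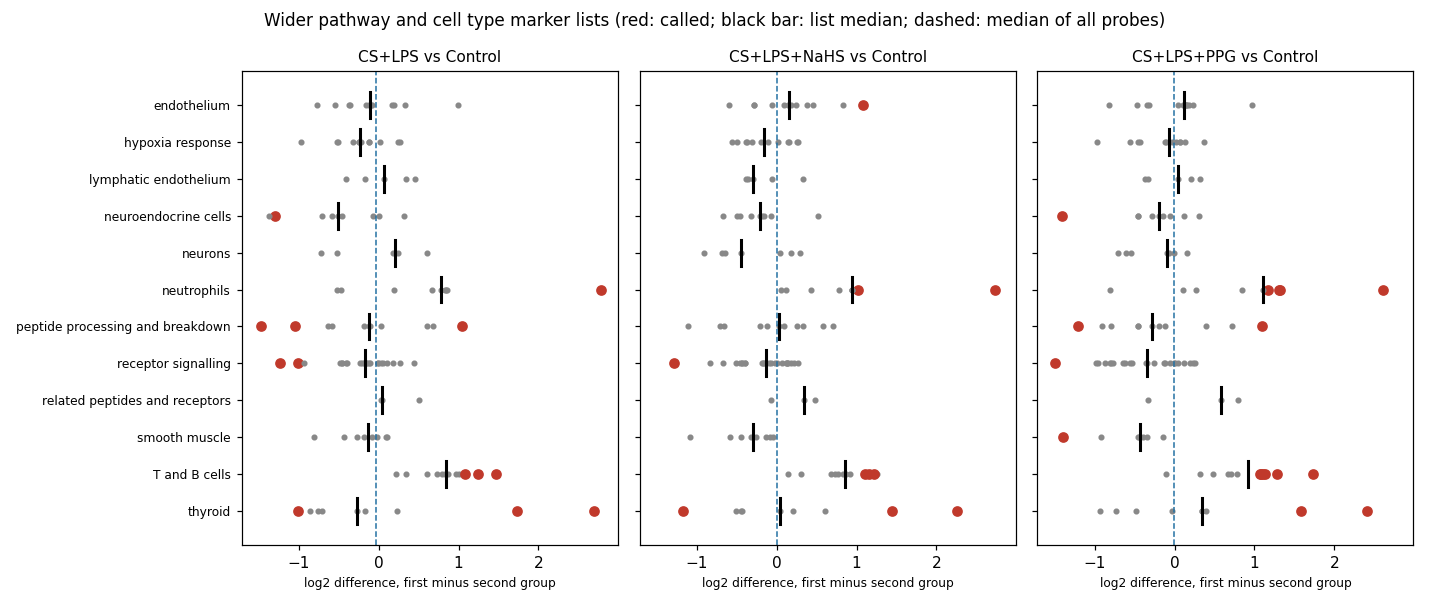
Log2 difference from control of each detected list gene in the 3 exposed groups (red points were called, black bars are list medians, dashed lines the median of all probes). The neutrophil and T and B cell lists lie to the right, with medians of 0.78 and 0.85 in CS+LPS.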

How the data were processed

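The authors deposited the scanner output of each array from Feature Extraction 10.7.3.1, and the processed signal is a background-subtracted intensity. The 5 deposited lists of differentially expressed probes hold the authors' own fold changes and p-values, not used here, and normalized log2 signals, used for the Calca probes alone as an alternative. How those were normalized is not given in the sources used here, and 60 of the lists' columns for single arrays were not used. Signals were put on the log2 scale, outlier spots were left out, spots of one probe were averaged, and arrays were aligned at their 75th percentile. A probe was kept where some group had it well above background in all 3 rats. Comparisons came from a fit of limma 3.58.1 in R 4.3.3 to all 12 arrays, with two-sided p-values. The fit was also run on simulated data with independent noise and no slide effect, which cannot show how it does across these slides. Symbols came from RefSeq (17514 probes), otherwise from the lists (194), and 12659 probes had none. The genes and lists were chosen with earlier results of these data known. Named genes are all 7 genes and the genes most alike over arrays. Some of the list genes called in at least 1 comparison, or needed to show a list's range, are named too. The most intense probe stands for a list gene. P-values set a difference between groups against the spread between rats within groups. Where CS+LPS is compared with NaHS or PPG, that difference also holds the difference between slides, which the main fit did not model. Comparisons with control hold a part of it too, since control replicates 1 and 2 were on slide 1 and control replicate 3 on slide 2. That part is larger for CS+LPS, whose arrays were all on slide 2. The 3 arrays per group limit the precision of every value. Alternatives were another normalization, background correction, filter, block, test or set of arrays.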

Additional observations from a re-analysis of the deposited data

How the results depend on the processing

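Between CS+LPS and control, the count of called probes of the 7 genes was 2, and it was 1 with normexp background correction on the median signal, where the variant 1 probe of Calca differed by -0.79, and 4 with slide as a block. With NaHS against control the count was 2, and 0 with normexp, 1 with slide as a block and 1 with the methods' t-test. With PPG against control it was 1, and 0 with slide as a block and with the methods' t-test. With NaHS against CS+LPS it was 1, and 0 with quantile normalization and with normexp, and 4 with slide as a block. With PPG against CS+LPS it was 0, and 3 with slide as a block. Leaving out each array in turn gave counts of 2 to 3 for CS+LPS, 1 to 2 for NaHS and 0 to 2 for PPG against control, 0 to 1 for NaHS and for PPG against CS+LPS, and 0 throughout between NaHS and PPG. The NaHS count was 1 without control replicate 3, NaHS replicate 1 or NaHS replicate 3, and the PPG count was 0 without control replicate 3 or PPG replicate 2 and 2 without PPG replicate 1 or PPG replicate 3. Against CS+LPS, the NaHS count was 0 without CS+LPS replicate 3 or NaHS replicate 2, and the PPG count was 1 without CS+LPS replicate 1 or PPG replicate 2. With slide as a block the Ramp2 difference of NaHS from CS+LPS turned from 0.07 to -1.37, a fit in which control replicate 3 alone links the slides.

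Of the list genes, 13, 10 and 17 were called in CS+LPS, NaHS and PPG against control, and 5, 4 and 8 with normexp. Of all 21239 detected probes 969, 567 and 930 were called there (4.56%, 2.67% and 4.38%), and 375, 213 and 415 with normexp. Slide as a block gave 34 list genes for CS+LPS and 8 for PPG. Leaving out control replicate 3, chosen after seeing the data, gave 8 list genes for PPG, and 660 of all probes. Against CS+LPS, 3 list genes were called with NaHS and 2 with PPG, and 1 and 0 with normexp, and 25 and 23 with slide as a block. Of all probes 361 and 435 were called there, and 74 and 106 with normexp. Between NaHS and PPG 2 list genes were called, and 0 with normexp, against 111 and 56 of all probes. These list counts moved in the same direction as those of all probes. The authors' normalized values, also an added alternative, gave Calca differences between CS+LPS and control of -1.25 and -2.03.

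Same-numbered arrays did not deviate together (r from -0.309 to 0.139 over 18 pairs), so the numbers were not taken as pairs. With the replicate block, 2 probes were called in CS+LPS and 2 with NaHS against control, 1 with PPG against control, 1 with NaHS and 0 with PPG against CS+LPS, and 0 between NaHS and PPG. The slide block moved the calls over all 21239 probes as well, from 969 to 4831 for CS+LPS, 567 to 412 for NaHS and 930 to 660 for PPG against control, and from 361 to 4224 for NaHS and 435 to 4120 for PPG against CS+LPS. Calls of Calca probes rest on the arrays that chose the gene and are counted as a description. The dim Calca signals and 3 arrays per group limit what could be detected.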
